A study of Mus musculus with 6 samples.

Results

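Expression of 10 genes that encode secreted or membrane-bound antagonists of WNT signalling, chosen by symbol, was followed in mouse epiblast stem cells: Dkk1, Dkk3, Frzb, Sfrp1, Sfrp2, Sfrp5, Notum, Sostdc1, Wif1 and Apcdd1. All 10 were found among the 55471 gene identifiers of the count tables. The cells, which resemble the epiblast of the embryo as gastrulation starts, had been aggregated into embryoid bodies and differentiated in serum for 2 days. Of the 6 RNA-seq libraries, 3 came from a line labelled Mixl1 induced and 3 from a line labelled Mixl1 KO. Mixl1 encodes a homeodomain protein made in the primitive streak, from which mesoderm and endoderm arise. The induced group came from a doxycycline-inducible line, which received 1 µg/mL of the drug over its last 24 h in culture. Before aggregation, both lines had grown over irradiated embryonic fibroblasts in medium with 10 ng/mL bFGF plus 20 ng/mL Activin A. The labels do not say whether the KO cells received doxycycline, whether the lines share a parent, or how many clones were used, so line, drug and Mixl1 cannot be told apart.

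WNT ligands are lipid-modified secreted proteins that bring a frizzled receptor and an LRP5 or LRP6 co-receptor together, which stabilises β-catenin and lets it act with TCF and LEF factors at target genes. The antagonists stop this outside the cell in several ways. SFRP proteins carry a frizzled-like cysteine-rich domain and bind WNTs, and WIF1 binds them through another domain. DKK1 and SOSTDC1 occupy the LRP co-receptors, NOTUM removes the lipid from the ligand, and APCDD1 is a membrane protein that binds WNT and LRP. In the mouse embryo, WNT signals drive the posterior epiblast and the primitive streak, and antagonists made at the anterior side, DKK1 among them, hold that domain back.

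Gene reads ranged from 17490426 to 21026423 per library. Mixl1 had 8860, 7720 and 7861 reads in the induced libraries, against 817, 668 and 812 in the KO libraries. Gene counts do not say which exons the KO reads fell in, and the altered part is not named, so they do not check the knockout. All 10 epiblast stem cell markers examined, Pou5f1 among them, were tested, and Pou5f1 averaged 807.1 ± 21.7 CPM in induced libraries and 1294 ± 44.5 CPM in KO libraries (SD, n = 3 each; CPM are reads scaled to a common library size with TMM factors). Separate cultures are not stated for the triplicates; the p-values then cover only the spread among these libraries, and that spread may be technical.

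Promoter sequence is shown for the 3 members whose window held a match to a searched motif. They are Dkk1, the member that rose most, Sfrp2, the weakest of the rises, and Wif1, which did not pass the test. Sequences are from RefSeq (GRCm38.p6), written 5′ to 3′ on the gene's strand, with motif matches in capitals. The Dkk1 stretch of 30 bases (chr19:30549596-30549625, minus strand) spans 129 to 100 bases upstream of the RefSeq start and holds a match to CTTTGAA, a form of the TCF/LEF core. GENCODE places the Dkk1 start 169 bases further upstream, so the stretch lies inside its longer transcript. The Sfrp2 stretch (chr3:83766071-83766320, plus strand) is the 250 bases before the start and holds the octamer ATTTGCAT, the core recognised by POU factors such as OCT4. The Wif1 stretch (chr10:121033754-121033959, plus strand) runs from 250 to 45 bases upstream of the RefSeq start and holds TATAAA on the opposite strand.
Dkk1: ctcctcccaaagCTTTGAAatcccatcccg
Sfrp2: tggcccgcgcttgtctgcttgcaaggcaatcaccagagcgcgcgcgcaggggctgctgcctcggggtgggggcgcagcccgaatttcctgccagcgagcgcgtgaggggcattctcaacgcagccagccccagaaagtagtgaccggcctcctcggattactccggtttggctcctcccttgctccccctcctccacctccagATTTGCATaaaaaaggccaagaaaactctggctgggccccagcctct
Wif1: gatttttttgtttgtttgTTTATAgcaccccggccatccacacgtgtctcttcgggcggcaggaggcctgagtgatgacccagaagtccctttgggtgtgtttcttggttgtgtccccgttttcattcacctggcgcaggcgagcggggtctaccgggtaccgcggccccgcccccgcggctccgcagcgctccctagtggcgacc

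A small set of motifs was searched on both strands in the 250 bases upstream of each RefSeq start. They were picked after some of the sequences had been read. Windows were at hand for 5 members, Dkk1, Frzb, Sfrp2, Sfrp5 and Wif1. None of the members that fell had a window, so matches cannot be set beside the direction of change. Frzb and Sfrp5 held no match. GENCODE places the Frzb start 229 bases further upstream than RefSeq, so most of the Frzb window lies inside its longer transcript. Across 32851 windows of this length from 27025 gene symbols, which do not cover all genes, the TCF/LEF form CTTTGAA was found in 4.46%. Its other form, CTTTGAT, was found in 3.21%. The octamer ATTTGCAT was found in 1.60% of windows, the TATA-box form TATAAA in 12.4%, and the paired homeodomain palindrome P3 (TAAT and its reverse complement, 3 bases apart) in 0.463%. Among the 5 members, CTTTGAA occurred once, in Dkk1, whose window also held TATAAA 54 bases upstream. ATTTGCAT occurred once, in Sfrp2, starting 47 bases upstream, and neither CTTTGAT nor the P3 palindrome occurred. GC content of the 5 windows ran from 59.6% in Sfrp5 to 64.4% in Frzb, and the number of CpG dinucleotides was 6 in Dkk1 and 13 to 21 in the others. A match describes these letters and is not evidence of binding.

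The antagonists moved in both directions. Of 9 members tested, 5 were higher in induced libraries (Dkk1, Dkk3, Frzb, Sfrp1 and Sfrp2) and 3 were lower (Notum, Sostdc1 and Apcdd1), while Wif1 did not pass and Sfrp5 had too few reads to be tested (edgeR quasi-likelihood test, Benjamini-Hochberg adjusted p under 0.05). Across all 15091 tested genes, 62.6% passed, 31% higher and 31.6% lower in induced libraries, so passing alone does not set the members apart. Against a change of at least 2-fold, 7 of the 9 passed, all but Sfrp2 and Wif1, where 10.8% of all tested genes did. For 8 of the 9, every induced library lay on the same side of every KO library in CPM, which 67.1% of all tested genes also did. The log2 fold changes of the 9 ran from -5.74 to 5.45. Their median was 0.70, or 1.16 over all 10 with no filter on low counts, against 0.0038 over all tested genes; as the members moved both ways, it does not describe them. In bulk RNA, fewer cells that express a gene and less RNA per cell cannot be told apart.

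**Figure D1:**
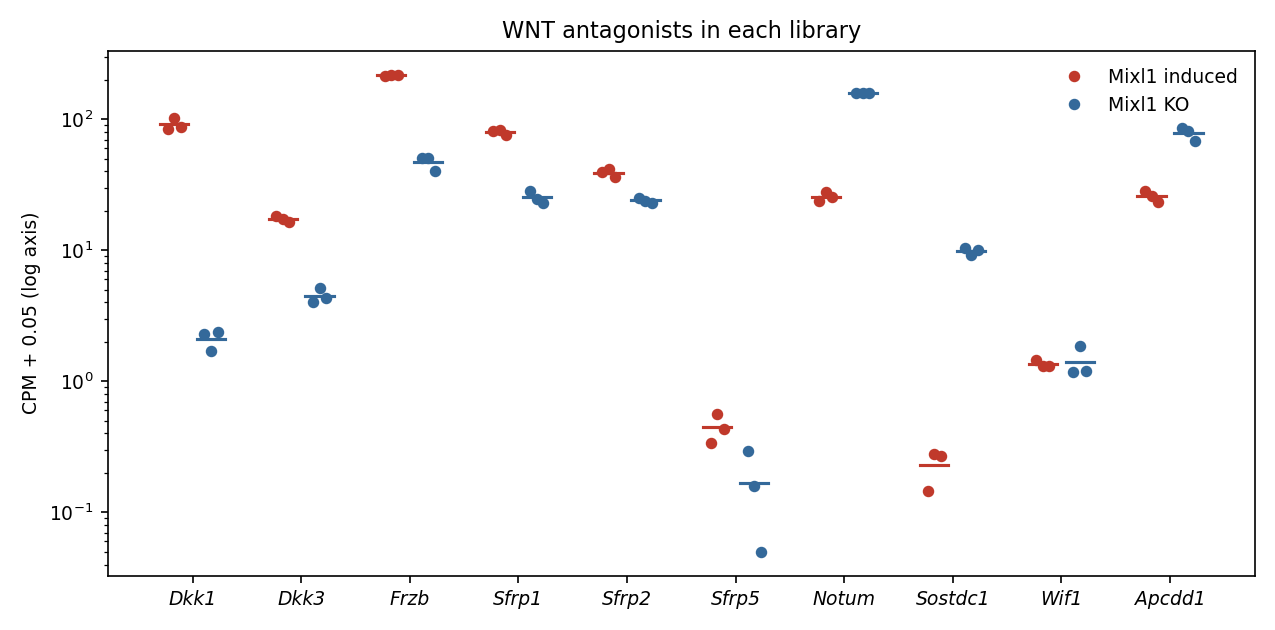
CPM of the 10 WNT antagonist genes in each library on a log axis, with 0.05 added so that a count of 0 can be drawn; red points are Mixl1 induced and blue points Mixl1 KO libraries, and short lines are group means (n = 3 each). The groups do not overlap for any gene but Wif1, and Sfrp5 lies below 1 CPM throughout.

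Dkk1 had the largest rise of the members. It encodes a secreted protein that blocks LRP5 and LRP6, is made by anterior endoderm, and is needed for head formation in the mouse. Its position in mm10 is chromosome 19, 30545863 to 30549665, minus strand (ENSMUSG00000024868.8). It was read 1734, 1798 and 1611 times in induced libraries 1 to 3, against 46, 30 and 44 times in KO libraries 1 to 3. These reads came to 83.6, 102.7 and 88.0 CPM in the induced libraries, against 2.24, 1.65 and 2.32 CPM in the KO libraries. Every induced library lay far above every KO library, and induced replicate 2 was the highest of its group. Its log2 fold change was 5.45 (SE 0.11; 95% interval 5.21 to 5.69; edgeR adjusted p = 1.38e-18), the 42nd largest rise of all tested genes by estimate.

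Dkk3 also rose, at a lower level. DKK3 is the divergent member of the Dickkopf family, and its part in WNT signalling is less settled than that of DKK1. The gene is on chromosome 7 from 112116017 to 112159057, minus strand (ENSMUSG00000030772.6). It had 381, 304 and 298 reads in induced libraries, against 82, 93 and 81 reads in KO libraries, and averaged 17.3 ± 1.05 CPM in induced and 4.46 ± 0.588 CPM in KO libraries (SD, n = 3 each). The groups stood well apart, with a coefficient of variation of 6.05% in induced and 13.2% in KO libraries. This gave a log2 fold change of 1.96 (SE 0.12; edgeR adjusted p = 2.38e-12).

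Among the SFRP genes, Frzb, Sfrp1 and Sfrp2 rose. Frzb, also known as Sfrp3, encodes a secreted WNT-binding protein first found in cartilage. It lies on chromosome 2 from 80411970 to 80447625, minus strand (ENSMUSG00000027004.3). It reached 212.3, 219.4 and 219.4 CPM in induced libraries, against 50.2, 50.5 and 40.4 CPM in KO libraries. The coefficient of variation was 1.88% in induced and 12.2% in KO libraries, and KO replicate 3 was lower than the other KO libraries. Frzb had a log2 fold change of 2.21 (SE 0.066; edgeR adjusted p = 1.29e-15).

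Sfrp1 and Sfrp2, whose products act redundantly in the elongation of the mouse trunk, are on chromosome 8 from 23411502 to 23449632 (plus strand; ENSMUSG00000031548.7) and on chromosome 3 from 83766321 to 83774316 (plus strand; ENSMUSG00000027996.13). Sfrp1 had 81.4, 83.0 and 76.4 CPM in induced libraries, against 28.5, 24.8 and 22.7 CPM in KO libraries. Sfrp2 had 39.5, 41.4 and 36.2 CPM in induced libraries, against 25.1, 23.9 and 23.1 CPM in KO libraries. Neither gene's groups overlapped. Sfrp1 had a log2 fold change of 1.66 (SE 0.070; edgeR adjusted p = 9.35e-15) and Sfrp2 one of 0.70 (SE 0.071; edgeR adjusted p = 1.71e-08). The 95% interval for Sfrp2 ran from 0.55 to 0.84, and it did not pass the test against a 2-fold change (edgeR adjusted p = 1).

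Sfrp5 was close to undetected. The gene, a marker of anterior visceral and foregut endoderm in the mouse, is on chromosome 19 from 42197971 to 42202252, minus strand (ENSMUSG00000018822.7). It had 6, 9 and 7 reads in induced libraries, against 5, 2 and 0 reads in KO libraries, where a count of 0 allows up to 3. The groups did not overlap, by 1 read at the nearest. The filter on low counts removed it, so it has no test here; with no filter its log2 fold change was 1.63 (SE 0.66; edgeR adjusted p = 0.0385).

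Notum, which encodes the carboxylesterase that strips the palmitoleate from WNT proteins and is itself a target of the pathway, fell. It lies on chromosome 11 from 120653788 to 120661175, minus strand (ENSMUSG00000042988.10). It had 23.8, 27.6 and 25.4 CPM in induced libraries, against 160.1, 158.7 and 157.4 CPM in KO libraries. The KO libraries were nearly alike, with a coefficient of variation of 0.827%, and the induced libraries lay far below them. The log2 fold change was -2.64 (SE 0.057; edgeR adjusted p = 3.64e-20), the smallest p among the members.

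Notum shares 2019 bases with Notumos, an antisense transcript on the plus strand, which was looked at because of this overlap after its values had been seen. Notumos had 18, 11 and 7 reads in induced libraries, against 93, 87 and 91 in KO libraries, so it was lower as well (log2 fold change -2.88, SE 0.24; edgeR adjusted p = 7.25e-10). Notum also shares 3274 bases with Myadml2os, an antisense gene with 0 reads in all induced libraries together and 3 in all KO libraries. Counting without strand leaves out reads where genes overlap: across both overlaps it kept 58.1% of the Notum reads in induced and 59.9% in KO libraries. Reads on the strand opposite to Notum were 0.825% of its stranded reads in induced and 1.16% in KO libraries. Sfrp2 shares 464 bases with the antisense gene Gm26771, and unstranded counting kept 82.1% of its reads in induced and 84.2% in KO libraries. The other 8 members overlapped no annotated gene.

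Sostdc1 fell most of the members. Its product, also called WISE or ectodin, binds LRP co-receptors and BMP ligands and is known in the mouse for limiting tooth number. The gene is on chromosome 12 from 36314139 to 36318452, plus strand (ENSMUSG00000036169.6). It had 2, 4 and 4 reads in induced libraries, against 212, 165 and 190 reads in KO libraries. In CPM this was 0.0964, 0.229 and 0.218 in induced libraries, against 10.3, 9.09 and 10.0 in KO libraries. The KO libraries were close together and the induced libraries near the limit of detection. The log2 fold change was -5.74 (SE 0.25; 95% interval -6.26 to -5.23; edgeR adjusted p = 7.87e-15).

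Apcdd1, a membrane antagonist that is also a WNT target, fell too. It is on chromosome 18 from 62922231 to 62961179, plus strand (ENSMUSG00000071847.13). It had 28.3, 26.1 and 23.4 CPM in induced libraries, against 85.8, 81.3 and 67.7 CPM in KO libraries. The groups did not overlap, although KO replicate 3 was below the other KO libraries, as it was for Frzb and Sfrp1. Apcdd1 had a log2 fold change of -1.59 (SE 0.089; edgeR adjusted p = 5.67e-10).

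Wif1, a secreted WNT-binding protein with a domain named after it, was low in both groups. It lies on chromosome 10 from 121033960 to 121100650, plus strand (ENSMUSG00000020218.11). It had 29, 22 and 23 reads in induced libraries, against 23, 33 and 22 in KO libraries, and the groups overlapped. The log2 fold change was -0.053 (SE 0.27; edgeR adjusted p = 0.877), with a 95% interval from -0.61 to 0.50. As a ratio of induced over KO, the interval ran from 0.656 to 1.42, so the data do not show equal levels.

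**Figure D2:**
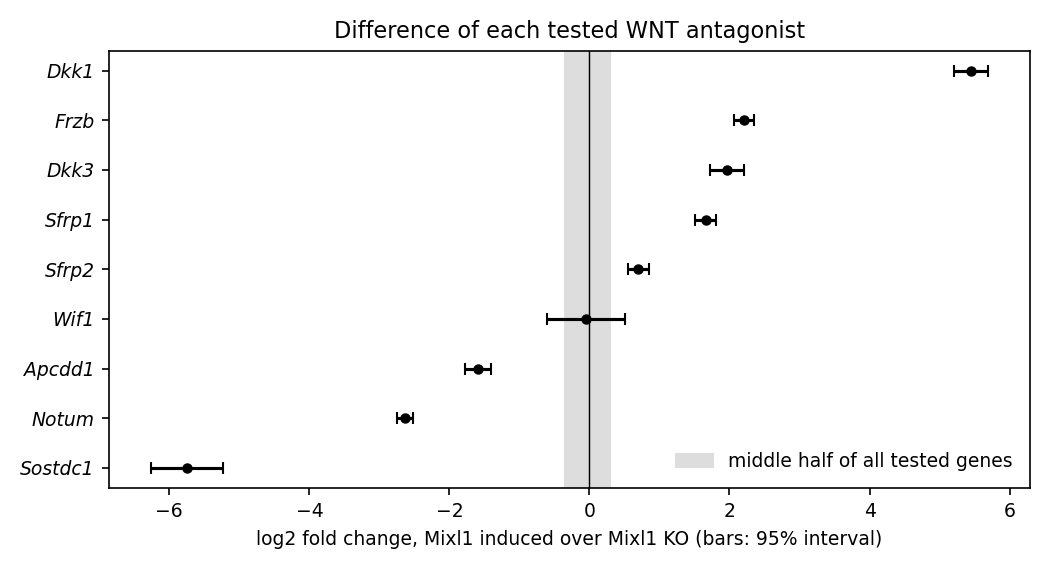
Log2 fold change of the 9 tested WNT antagonists, Mixl1 induced over Mixl1 KO, with 95% intervals from the edgeR fit; the grey band is the range between the lower and upper quartiles of all tested genes (-0.36 to 0.29). Only the interval of Wif1 crosses 0; Dkk1 at 5.45 and Sostdc1 at -5.74 lie at the ends.

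The authors' deposited table gives the same order of members. Its log2 fold changes were 5.46 for Dkk1, 2.21 for Frzb, 1.97 for Dkk3, 1.67 for Sfrp1 and 0.67 for Sfrp2 in the authors' deposited table. For those that fell, the authors' deposited table has -5.81 for Sostdc1, -2.67 for Notum and -1.59 for Apcdd1. It lists Wif1 at -0.053 (adjusted p = 0.934) and Sfrp5 at 1.42 (adjusted p = 0.172) in the authors' deposited table.

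Levels of different genes were compared per length, as TPM, a level corrected for library size and for the length of the gene's joined exons. In induced libraries Frzb was the most abundant member at 226.6 ± 4.79 TPM, followed by Dkk1 at 127.3 ± 14.5, Sfrp1 at 62.1 ± 2.82, Sfrp2 at 61.2 ± 4.30, Notum at 35.9 ± 2.80 and Dkk3 at 17.4 ± 1.06 TPM (SD, n = 3). Below them came Apcdd1 at 6.80 ± 0.640, Wif1 at 1.81 ± 0.110, Sfrp5 at 0.703 ± 0.204 and Sostdc1 at 0.344 ± 0.140 TPM (SD, n = 3). Only Sfrp1 and Sfrp2 had overlapping ranges among neighbours in this order.

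In KO libraries Notum led at 222.0 ± 1.29 TPM, followed by Frzb at 48.9 ± 5.94, Sfrp2 at 37.6 ± 1.43, Apcdd1 at 20.5 ± 2.42, Sfrp1 at 19.5 ± 2.17 and Sostdc1 at 18.6 ± 1.14 TPM (SD, n = 3). Dkk3 had 4.48 ± 0.611, Dkk1 2.87 ± 0.496, Wif1 1.90 ± 0.553 and Sfrp5 0.209 ± 0.215 TPM (SD, n = 3). The ranges of Apcdd1 and Sfrp1, of Sfrp1 and Sostdc1, and of Dkk1 and Wif1 overlapped. The leading transcript thus was Frzb in induced libraries and Notum in KO libraries.

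The place of Apcdd1 in this order depended most on the length used. With the median length of the principal transcripts, 1888 bases in place of 12884, it had 29.7 ± 2.91 TPM in induced libraries and 89.8 ± 10.6 TPM in KO libraries (SD, n = 3 each), which made it 5th in induced and 2nd in KO libraries. This length was chosen after the data had been seen. It also exchanged Sfrp2 and Sfrp1, whose ranges overlap, in induced libraries, with 42.1 ± 3.13 TPM for Sfrp2 and 39.7 ± 1.98 TPM for Sfrp1 (SD, n = 3). Which transcript the reads came from is not given by gene counts.

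Both the sum and the make-up of the antagonist transcripts differed between the groups. Summed over the 10 members, induced libraries held 523.6, 569.9 and 527.2 TPM, against 386.1, 381.2 and 362.1 TPM in KO libraries, and the groups did not overlap. The SFRP genes made up 64.9% ± 1.47 of that sum in induced and 28.2% ± 1.52 in KO libraries (SD, n = 3 each). Dkk1 and Dkk3 together came to 144.8 ± 14.4 TPM in induced and 7.35 ± 0.232 TPM in KO libraries (SD, n = 3 each). Notum and Apcdd1, WNT targets that fell, made up 7.91% ± 0.125 of the sum in induced and 64.4% ± 1.23 in KO libraries (SD, n = 3 each). As both genes fell and the sum rose, their lower share in induced libraries is not a separate result. Dkk1, a WNT target that rose, made up 23.5% of the sum in induced and 0.765% in KO libraries on average. With principal transcript lengths the sums were 380.8 ± 18.3 TPM in induced and 341.7 ± 17.6 TPM in KO libraries, and the SFRP share was 60.7% ± 1.16 in induced and 20.8% ± 0.737 in KO libraries (SD, n = 3 each). The share of Notum and Apcdd1 was then 14.7% ± 0.495 in induced and 74.0% ± 0.441 in KO libraries (SD, n = 3 each).

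**Figure D3:**
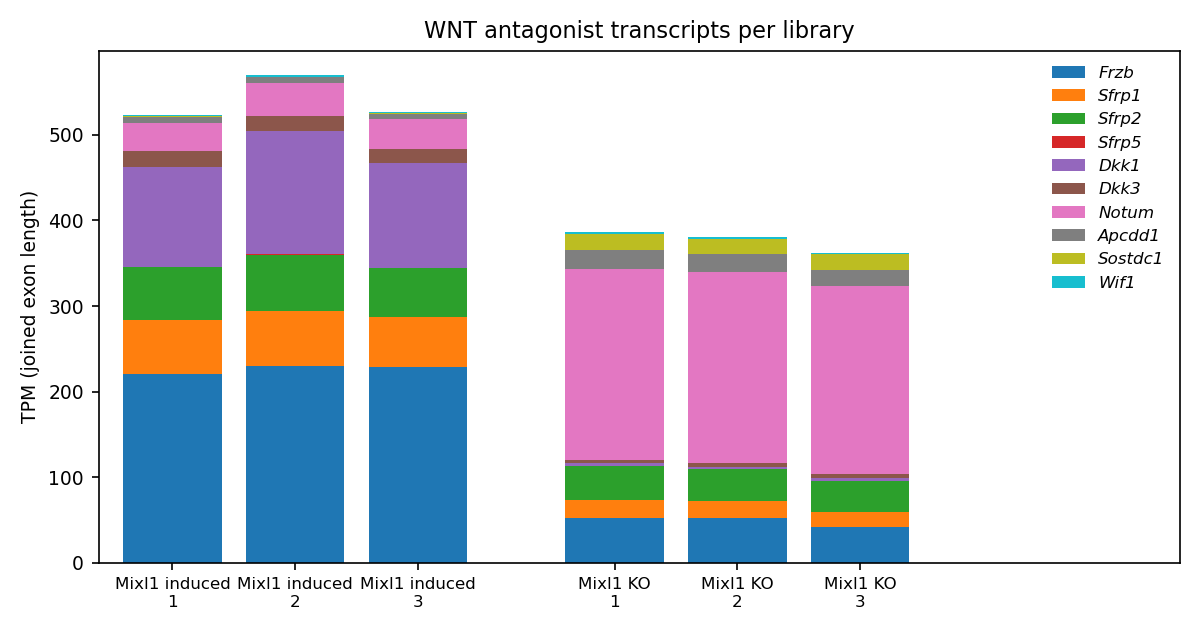
Stacked bars of TPM of the 10 WNT antagonists in each library, with Mixl1 induced libraries on the left and Mixl1 KO libraries on the right. Frzb and Dkk1 fill most of each induced bar, at 42.0% and 23.5% on average, whereas Notum fills 59.0% of the KO bars on average.

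The list of other antagonists also holds the co-receptors Kremen1, which rose, and Kremen2, which fell. Of its 14 genes tested, 5 rose and 4 fell, with a median log2 fold change of 0.0098. The rises numbered 4 under the DESeq2 Wald test and when some single libraries were left out. The share that passed, 64.3%, was near the 62.6% of all tested genes. Cer1 had 51.1 ± 3.30 CPM in induced and 0.276 ± 0.050 CPM in KO libraries (SD, n = 3 each). Its log2 fold change was 7.49 (edgeR adjusted p = 5.99e-21). Whether the mouse product of Cer1 blocks WNT was not tested, so its place among the antagonists rests on the list alone. Dkk2, a relative of Dkk1, had 17.9 ± 2.84 CPM in induced and 3.16 ± 0.277 CPM in KO libraries (log2 fold change 2.50). Sost, which encodes the LRP antagonist sclerostin and is the nearest relative of Sostdc1, fell like it, with 9 reads in all induced libraries together, against 371 in all KO libraries (log2 fold change -5.28). Kremen2, a co-receptor of DKK1, had a log2 fold change of -2.09. Sfrp4, chosen after its value was seen as the remaining SFRP gene, was at -4.60, opposite to Frzb, Sfrp1 and Sfrp2. Each of these genes had an edgeR adjusted p of 7.63e-10 or less.

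WNT ligand genes passed in every tested case, 15 of 18 being lower and 3 higher, with a median log2 fold change of -1.51. Of all tested genes, 62.6% passed, 31% higher and 31.6% lower. Against a 2-fold change, 9 ligand genes were called lower and 1 higher. The DESeq2 Wald test called 14 lower, as did the fit without induced replicate 2. Wnt8a, a ligand of the posterior epiblast, had 25.7 ± 2.13 CPM in induced and 288.1 ± 13.7 CPM in KO libraries (SD, n = 3 each). Wnt6 had a log2 fold change of -3.66, Wnt2 one of 6.12 and Wnt1 one of 1.22. Summed over the 19 ligand genes, TPM was 201.8 to 212.7 in induced and 1028 to 1107 in KO libraries. Over joined exons, the summed TPM of the 10 antagonists was above that of the ligands in each induced library and below it in each KO library.

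Of 17 receptor genes, 13 rose and 2 fell, with a median of 0.42. Against a 2-fold change, 3 of them were called higher and 0 lower. Fzd7, a frizzled gene of the early epiblast and mesoderm, had a log2 fold change of 2.24 and Fzd3 one of 1.03, whereas Ptk7 was at -0.74 and Fzd10 at -0.31. The genes of lipidation, secretion and extracellular handling of WNTs had 2 rises, Gpc4 (1.26) and Gpc3 (0.46), and 1 fall, Adgra2 (-0.30), among 7 tested; the Adgra2 call was lost without induced replicate 3 or without KO replicate 2, at -0.24 and -0.20. R-spondin and LGR genes split evenly, 3 higher and 3 lower of 6 tested, with Lgr4 at 0.73, Rspo1 at -1.91 and Lgr6 at -2.89. Of 19 intracellular transducers, 6 rose and 9 fell, none past the test against a 2-fold change, with Ctnnbip1 at 0.52, Dvl1 at 0.44, Bcl9 at -0.42, Tcf7 at -0.47 and Lef1 at -0.87. The values of single genes and the median are log2 fold changes. The share that passed was 88.2% of receptor genes and 42.9% of handling genes. It was 100% of R-spondin and LGR genes and 78.9% of intracellular transducers, against 62.6% of all tested genes.

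Notum, Apcdd1 and Dkk1 are also known WNT response genes, and they did not move together. Without these 3, 10 of 16 tested response genes fell and 3 rose, with a median log2 fold change of -0.51. The share that passed was 81.25%, against 62.6% of all tested genes. The 3 that did not pass were Axin2 (log2 fold change -0.070), Znrf3 (0.065) and Rnf43 (-0.23), so the fall did not extend to every response gene. Some response genes are counted on another list too. Znrf3 and Rnf43 are among the other antagonists, Lef1 and Tcf7 among the intracellular transducers, and Lgr5 among the R-spondin and LGR genes. T, the brachyury gene, was at -3.14 and Tnfrsf19 at 1.28. Notum and Apcdd1 fell with the majority, and Dkk1 rose against it. Over the 96 other pathway genes of all 7 lists, 76 of 92 tested passed (82.6%, against 62.6% of all tested genes), 34 higher and 42 lower. Against a 2-fold change 27 passed.

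**Figure D4:**
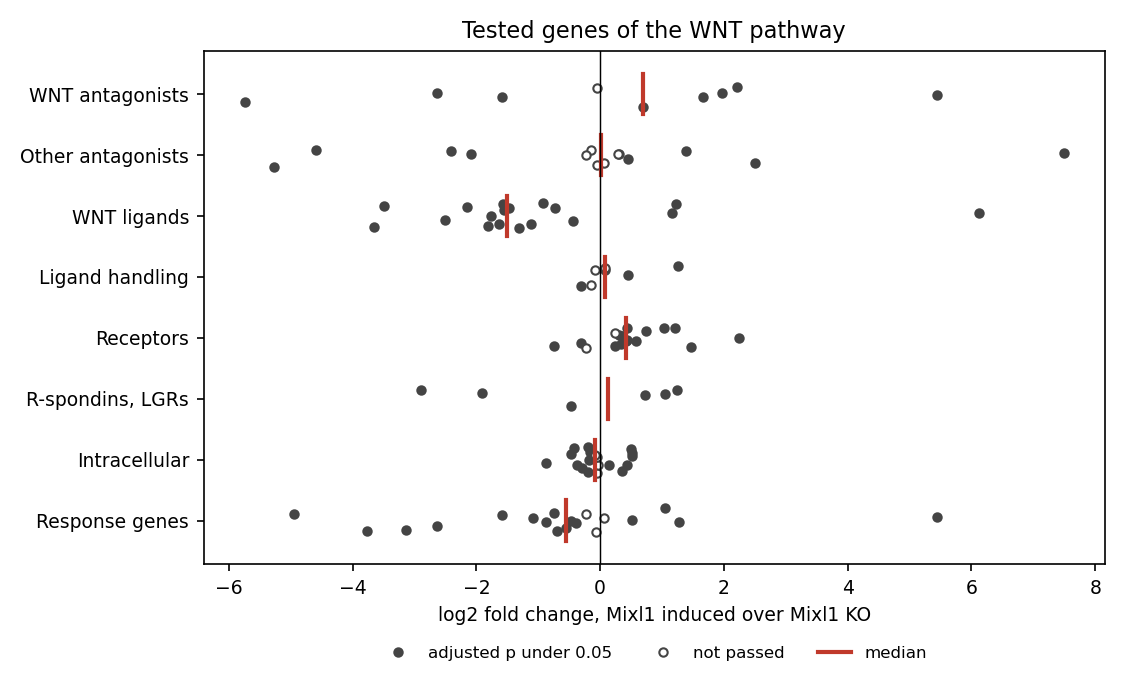
Log2 fold change, Mixl1 induced over Mixl1 KO, of the tested genes in each list of the WNT pathway; filled points passed an edgeR adjusted p of 0.05, open points did not, and red lines are medians. WNT ligands lie mostly below 0 (median -1.51), while the antagonists spread from -5.74 to 5.45.

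Patterns most like each member were sought among 10938 other protein-coding genes by the Euclidean distance between log2 CPM profiles over the 6 libraries, each centred on its mean. The distance mostly reflects the difference between groups. Nearest to Dkk1 were Htr3a (distance 0.32) and Cdh22 (0.59), and nearest to Frzb were Ephb1 (0.16) and Dtx4 (0.20). Nearest to Dkk3 were Slc35g2 (0.12) and Cyp2b23 (0.14), nearest to Sfrp1 Tspan33 (0.14) and Acsl1 (0.17), and nearest to Sfrp2 Fgfr2 (0.067) and Egr3 (0.067). Notum was nearest to Rgs17 (0.065), Apcdd1 to Dysf (0.22) and Synpo2l (0.23), and Wif1 to Akap5 (0.16) and Zfp420 (0.25). Sostdc1 had no close match, its nearest being Cdx1 (0.67) and Sost (0.68).

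Markers of other cells that can express these antagonists moved between the groups too. Embryonic fibroblasts, the feeder cells, are a known source of Sfrp1, Sfrp2 and Dkk3. Of 12 fibroblast markers, 8 fell and 3 rose, and their summed level was 531.9 to 725.0 CPM in induced and 988.0 to 1212 CPM in KO libraries. The share of these markers that passed was 91.7%. Of all tested genes, 62.6% passed, 31% higher and 31.6% lower. Acta2 (log2 fold change -2.51), Dcn (-2.64) and Fbln2 (-1.08) fell while Thy1 (0.93) and Lum (0.70) rose. Col1a2, the remaining marker that rose, named after its value was seen, was at 1.09. What fibroblasts contributed to the levels of Sfrp1, Sfrp2 and Dkk3 was not tested.

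Of 10 markers of anterior visceral and definitive endoderm, a known source of Dkk1, 8 rose and none fell, and their summed level was 358.2 to 379.7 CPM in induced and 103.4 to 107.4 CPM in KO libraries. Cer1, Gsc (log2 fold change 4.43) and Gata6 (5.26) led, and the 2 that did not pass were Hhex (-0.060) and Sox17 (0.68). The share of these markers that passed was 80%, against 62.6% of all tested genes. Of all tested genes, 31% were higher in induced libraries. Cer1 is also counted among the other antagonists, and Otx2, which rose, among the epiblast stem cell markers. Of 8 nascent mesoderm markers 7 rose and 1 fell, with Mesp1 at 3.81, Kdr at 3.78, Pdgfra at 1.55 and Tbx6 at -0.60, and a summed level of 147.4 to 179.1 CPM in induced and 60.0 to 65.3 CPM in KO libraries. All 8 mesoderm markers thus passed, against 62.6% of all tested genes. Visceral endoderm markers were nearly absent, 2.57 to 2.95 CPM in sum in induced and 3.32 to 4.74 CPM in KO libraries, with Ttr and Hnf4a at 0 reads throughout and Cubn lower (-1.45). Of 6 neural ectoderm markers tested, Sox1 (1.96) and Hesx1 (4.07) rose, and Pax6, Pax3, Zic1 and Lhx2 did not pass. The share that passed, 33.3%, was below the 62.6% of all tested genes. The summed level was at least 50.7 CPM in induced and at most 20.8 CPM in KO libraries. Sox1 alone averaged 42.4 CPM in induced and 10.9 CPM in KO libraries, and Hesx1 0.982 CPM in induced and 0.0522 CPM in KO libraries.

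All 8 macrophage markers fell, among them Adgre1 (log2 fold change -2.65), C1qa (-2.52) and C1qb (-2.04), with 45.2 to 56.1 CPM in sum in induced and 306.9 to 443.6 CPM in KO libraries. Of all tested genes, 62.6% passed and 31.6% were lower. Most of both sums was Lyz2, which averaged 34.7 CPM in induced and 311.2 CPM in KO libraries. Of the epiblast stem cell markers, 7 rose, including Sox2 (1.86) and Lin28a (0.87), and 3 fell, including Nanog (-1.59) and Pou5f1 (-0.68), with a summed level of 1916 to 1999 CPM in induced and 2100 to 2240 CPM in KO libraries. All 10 epiblast markers thus passed, against 62.6% of all tested genes. The part of any of these cell types in the members' levels was not tested.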

How the data were processed

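The authors deposited raw read counts per gene for 6 libraries; the tools were bcl2fastq, STAR and DESeq2 and the build mm10, per the submitters' processing notes. Tool versions are not given in the sources consulted. The kit was stranded, per the labels' protocols, and the counts of column 4, which held at least 96.2% of the stranded gene reads, were used. Rows that name no gene took 15.1% to 17.6% of reads and were left out. The authors also deposited a comparison table whose headers, per the file headers, name a mean normalised signal, a log2 fold change, its standard error and a Wald score, p-values, and a −log10 of the adjusted p.

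Names and positions came from GENCODE M21 for 55230 of 55471 identifiers. Counts were filtered (filterByExpr), scaled by TMM and fitted with edgeR 4.0.16 in R 4.3.3 (robust quasi-likelihood, group only, two-sided, Benjamini-Hochberg over all tested genes, threshold 0.05). The script was tested on simulated data. The standard error is the log2 fold change over the square root of F. TPM were computed from the deposited counts. For low counts, depth limits precision, and intervals cover the fit across libraries. Named genes were all members, the 3 listed genes of smallest p per list and up to 2 that went against a list's majority. Genes that did not pass are also named for the response, anterior endoderm and neural lists. Otx2 and Lgr5 are named because each is on 2 lists, and Lyz2 for its part in the macrophage sum. Members and lists were chosen with earlier results of these data known. Same-numbered libraries of the groups were not paired. One gene of the pattern search is not reported here.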

Additional observations from a re-analysis of the deposited data

How the results depend on the processing

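The 8 members called kept their direction and stayed past the threshold under DESeq2 size factors, no filter, unstranded counts, the DESeq2 Wald test and every library left out in turn, and with no filter Sfrp5 made it 9. The test against a 2-fold change called 7 members, all but Sfrp2 of the 8, 27 other pathway genes in place of 76, and 1628 genes in place of 9450. With no filter the members' median was 1.16 in place of 0.70, because Sfrp5 entered. The log2 fold change of Wif1, which did not pass, ran from -0.19 to 0.20 with 1 library left out, the highest value being without KO replicate 2. Among visceral endoderm markers, the log2 fold change of Amn ran from -0.29 to 0.23 and the log2 fold change of Rhox5 from -0.12 to 0.088 with 1 library left out; Rhox5 was at 0.0025 with unstranded counts and at 0.000518 with DESeq2, none of them past the threshold. The call on the log2 fold change of Adgra2 was lost without induced replicate 3 (-0.24) or without KO replicate 2 (-0.20). Leaving out 1 library in turn gave 8863 to 9225 genes, 8 members and 73 to 75 pathway genes. With a replicate block, 9647 genes, 8 members and 76 pathway genes were called; correlations between same-numbered libraries were 0.018, 0.16 and 0.14, and the numbers are not taken to pair the samples. Depth limits what can be said of Sfrp5 and Wif1 in both groups and of Sostdc1 in induced libraries.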
